A study of Mus musculus with 18 samples.

Results

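Ribosome footprints of mouse primary astrocytes were compared after 48 hr and after 24 hr of the cytokines TNFα and IL-1β. Both alleles of Eif2b5 in these cells carried the R132H point mutation. Its product is the subunit of eIF2B with exchange activity, by which eIF2B reloads the initiation factor eIF2 with GTP. Mutations of eIF2B subunits cause vanishing white matter disease. The comparison uses 6 of the 18 libraries of the series: 3 Ribo-seq libraries of mutant cells at 48 hr (batches A, B and C) and 3 Ribo-seq libraries of mutant cells at 24 hr (the same batch letters). Freshly thawed cells of every group spent 120 hr in culture. TNFα at 20 ng/ml and IL-1β at 0.25 ng/ml were present for the last 48 hr or the last 24 hr, and the untreated cells got neither. RNA-seq libraries came from an undigested portion of the same lysates.

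The deposited values are 1 pooled log2 fold per gene and time, treated over untreated mutant cells. The measure used here is the mutant footprint fold at 48 hr minus that at 24 hr, in which the untreated libraries cancel. It was available for 12204 of 12205 genes. With no value per library there is no replicate error, no gene could be tested, and the depth behind each fold is unknown. A log2 difference of 1, a doubling or a halving, was used as a descriptive threshold, and "rose" and "fell" are used of genes past it. The sources used here do not say how the folds were scaled, so a difference is relative to the rest of the footprints. In a bulk culture fewer cells of a type and less RNA per cell cannot be told apart. The source animals, their number and their age are not given in the labels.

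Ribo-seq sequences the stretches of mRNA that translating ribosomes shield from nuclease, here fragments of 26 to 34 nt. A gene's footprint level follows both its mRNA level and the ribosomes carried per mRNA, which the authors deposited as ribosome density (RD). TNFα and IL-1β act mainly through NF-kB, and in many cells they also start an interferon response, in which transcription factors switch on antiviral genes. That response is known to be held in check by feedback proteins such as Usp18.

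Between 24 hr and 48 hr most footprints barely moved. The median difference of the 12204 genes was -0.01, with quartiles of -0.16 and 0.13. Footprints of 89 genes (0.729%) rose and those of 137 genes (1.12%) fell, 226 in all (1.85%). Only 10 genes rose and 22 fell by more than 2 on the log2 scale. Among the 137 that fell, 79 had a fold of at least 1 at 24 hr. A fold of -1 or lower was found in 56 of the 137 at 48 hr and in 39 already at 24 hr. Among the 89 that rose, 53 had a fold of at least 1 at 48 hr and 33 had one already at 24 hr. A further 33 of the 89 had a fold of -1 or lower at 24 hr. The difference is made from these same folds, so picking genes by it favours such counts. They describe the picked genes only, and the share of all genes with such folds is not given. At the edge of the threshold, Grik3 and Ptchd1 both had a difference of 1.01, and Ncam2 and Rasgrp2 lay just outside at 1.00 and 0.99. On the other side Gpr141 and Neurl1b lay just inside, and Oxtr and Nov lay just outside, Nov at -0.99.

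mRNA mostly moved the same way as the footprints. The mutant mRNA difference rose in 67 genes (0.549%) and fell in 106 genes (0.869%). Of the 137 genes whose footprints fell, 130 also had an mRNA difference below 0, against 49.5% of all genes, and 76 passed -1, which is 71.7% of the 106 mRNA falls. Of the 89 whose footprints rose, 77 had an mRNA difference above 0, against 50.5% of all genes. In 33 of the 89 it passed 1, which is 49.3% of the 67 mRNA rises. Across the 12204 genes the 2 differences had a Pearson correlation of 0.59 and a Spearman correlation of 0.40. This is a description across genes that share the same cultures and lysates.

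**Figure D1:**
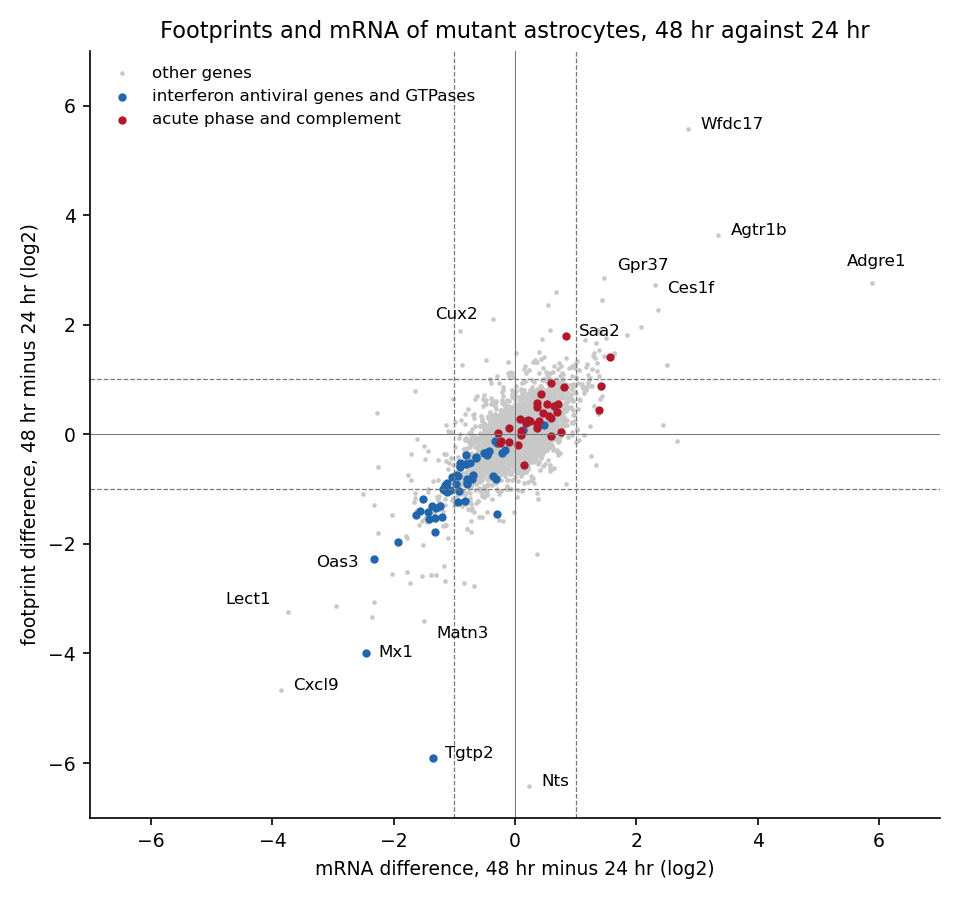
Footprint difference (y axis) against mRNA difference (x axis), both 48 hr minus 24 hr on the log2 scale, 1 point per gene, with dashed lines at 1 and -1 (blue, interferon antiviral genes and GTPases; red, acute phase and complement genes; grey, other genes). Interferon antiviral genes and GTPases run along the lower left diagonal, and Nts (-6.41) and Tgtp2 (-5.91) lie far below the diagonal.

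Many of the genes that fell were interferon antiviral genes, whose products block viral replication. Of 42 measured members, 40 had a footprint difference below 0, against 51.7% of all genes, and 18 fell, against 1.12% of all genes. Their median difference was -0.85, and the median fold over untreated cells was 1.92 at 48 hr and 2.78 at 24 hr. Over the 8 members with a deposited footprint density alone, the median difference was -0.34. Most of them therefore remained above untreated cells while standing lower than a day earlier. Oas3, which makes the oligoadenylate signal that activates RNase L, had a footprint fold of 1.17 at 48 hr against 3.45 at 24 hr in the authors' deposited table, a difference of -2.28. Ifi44 stood at 2.94 at 48 hr against 4.91 at 24 hr in the authors' deposited table, a difference of -1.97. Isg15, the ubiquitin-like protein attached to other proteins in the interferon response, stood at 2.80 at 48 hr against 4.58 at 24 hr in the authors' deposited table, a difference of -1.78. The feedback inhibitor Usp18 fell with them, by 1.53, to a fold of 1.44 at 48 hr against 2.97 at 24 hr in the authors' deposited table. At the other end of the list, Samhd1 had a difference of -0.12, and Ifi27 and Lgals3bp had differences of 0.09 and 0.18.

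The mRNA of these genes moved by about as much. The median mRNA difference of the 42 antiviral genes was -0.80, 40 were below 0 and 16 fell. The median of the footprint difference minus the mRNA difference was 0.00, with 21 members on each side of 0, against 53.5% of all genes below 0 and 46.5% above. Ifi44 had an mRNA difference of -1.92 beside its footprint difference of -1.97. Oas3 had -2.32 in mRNA beside -2.28 in footprints.

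The interferon-inducible GTPases, which act on the membranes of vacuoles that hold pathogens, showed the same direction. Of 15 measured, 14 lay below 0 (51.7% of all genes did) and 5 fell (1.12% of all genes), with a median of -0.75 for footprints and -0.97 for mRNA. Gbp5 had a footprint fold of 6.96 at 48 hr against 8.43 at 24 hr in the authors' deposited table, a difference of -1.47. Gbp3 differed by -1.54, Gbp2 by -1.34 and Ifi47 by -1.06, while Gbp8 differed by 0.24. The Gbp genes, the Ifit genes and Tgtp2 each have close copies in the mouse genome, and the sources used here do not say how reads shared between copies were counted, so their separate values are uncertain.

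Short stretches of RefSeq promoter are shown for genes of these lists because many hold the letters of the interferon-stimulated response element (ISRE), which read GAAA, any 2 bases, GAAA on one strand and TTTC, any 2 bases, TTTC on the other. The 250 bases before the start site were searched on both strands in the 9375 measured genes matched to a RefSeq promoter by identifier or symbol. The 6 entries are those with the lowest footprint differences among 13 antiviral, GTPase and CXC chemokine genes that fell and held the motif. Each is given 5′ to 3′ on the gene's strand in build GRCm38.p6, with every full ISRE match in capitals.
Tgtp2 (chr11:49064248-49064307, minus strand): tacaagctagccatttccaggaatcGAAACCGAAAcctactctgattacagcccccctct
Oas3 (chr5:120777700-120777759, minus strand): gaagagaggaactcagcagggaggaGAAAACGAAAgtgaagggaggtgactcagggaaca
Cxcl10 (chr5:92349068-92349127, minus strand): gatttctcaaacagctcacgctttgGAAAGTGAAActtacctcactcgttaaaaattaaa
Isg15 (chr4:156200850-156200909, minus strand): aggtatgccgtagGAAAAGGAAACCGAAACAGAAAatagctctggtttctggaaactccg
Gbp3 (chr3:142559980-142560039, plus strand): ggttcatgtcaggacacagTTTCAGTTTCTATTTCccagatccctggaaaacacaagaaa
Gbp5 (chr3:142496744-142496803, plus strand): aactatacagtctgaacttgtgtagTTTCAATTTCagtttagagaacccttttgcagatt

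The ISRE letters occurred in 250 of the 9375 promoters (2.67%). The ISRE letters stood in 19 of the 104 matched genes whose footprints fell (18.3%) and in 0 of the 60 matched genes whose footprints rose. Of the GTPases 8 of 9 matched promoters held them, and of the antiviral genes 9 of 31. A match describes the letters only and is not a measured binding site.

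Of the regulators of this response, Irf7 was the only one of 15 interferon signalling genes to fall. Its difference was -1.24 in footprints and -1.66 in mRNA. Stat2 differed by -0.69 and Irf9 by -0.68, and both are parts of the complex that binds the ISRE. Irf1, an early interferon regulatory factor, differed by only -0.18 and kept a fold of 3.02 at 48 hr against 3.20 at 24 hr in the authors' deposited table. The kinase Jak1 differed by 0.38, and the list's median was -0.12, with 8 of 15 below 0. Over the 3 members with a deposited footprint density the median was 0.23, on the other side of 0.

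Antigen presentation moved less than the antiviral genes. Of 21 measured genes of MHC class I and peptide loading, 19 lay below 0, against 51.7% of all genes, with a median of -0.29, but only the immunoproteasome subunit Psmb8 fell (-1.03). H2-T23 differed by -0.92, and Psmb10 by -0.70. H2-Q7 differed by 0.54. The class I genes are near-identical copies of each other, so their separate values are uncertain.

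**Figure D2:**
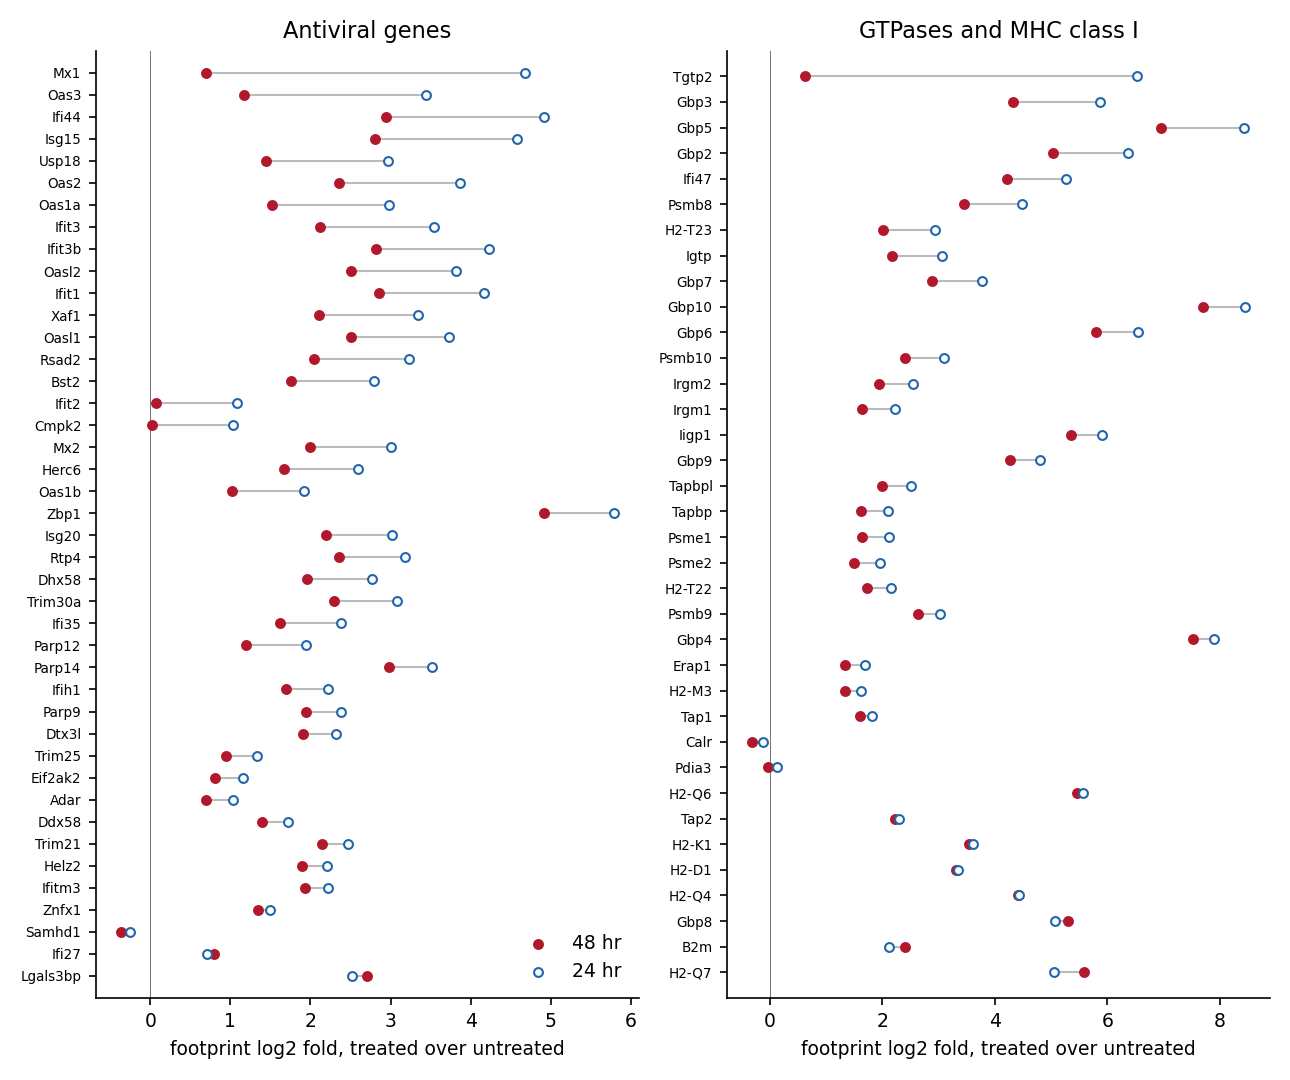
Footprint log2 fold over untreated cells (x axis) of each measured antiviral gene (left), and each GTPase and MHC class I gene (right), at 48 hr (filled) and 24 hr (open), ordered by the difference with the lowest at the top. In 40 of 42 antiviral genes the filled point lies left of the open one.

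None of the 18 libraries is WT, but the authors' deposited table also holds WT folds. In WT cells 89 genes (0.729%) rose and 130 (1.07%) fell between 24 hr and 48 hr. Of the 137 genes whose footprints fell in mutant cells, 122 had a WT difference below 0, against 49.4% of all genes, and 72 fell in WT cells too, which is 55.4% of the WT falls. Of the 89 that rose in mutant cells, 82 had a WT difference above 0, against 50.6% of all genes, and 35 rose in WT cells too. Across 12204 genes the mutant and WT footprint differences had a Pearson correlation of 0.53 and a Spearman correlation of 0.38. This too is a description across genes. The antiviral genes had a median of -0.85 in mutant cells and -0.86 in WT cells, and 18 fell in each. Whether any gene differed between the genotypes was not tested.

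Chemokines differed among themselves. Of 9 measured CXC chemokines 6 lay below 0 and 3 fell, against 51.7% and 1.12% of all genes. The 3 that fell attract T cells through CXCR3: Cxcl9 by 4.67, Cxcl10 by 1.89 and Cxcl11 by 1.65. Cxcl10 stood at a footprint fold of 5.82 at 48 hr against 7.71 at 24 hr in the authors' deposited table. The neutrophil attractants moved less. Cxcl1 differed by -0.41 and Cxcl2 by -0.67, with folds of 8.20 and 8.81 at 48 hr against 8.61 and 9.48 at 24 hr in the authors' deposited table. Cxcl12 differed by 0.65. Among 7 measured CC and CX3C chemokines 6 lay below 0, against 51.7% of all genes. Ccl17 and Ccl5 fell, by 2.78 and 1.26, against 1.12% of all genes. With the footprint fold rebuilt as mRNA plus RD, Ccl17 differed by -1.61.

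The interleukins and their receptors had no common direction, with 9 of 17 above 0, against 48.3% of all genes, and a median of 0.13. The 3 that fell, against 1.12% of all genes, were the granulocyte factor Csf3 (-1.60), the decoy Il18bp (-1.48) and Il15 (-1.03). Il6 stood at 4.55 at 48 hr against 5.00 at 24 hr in the authors' deposited table, a difference of -0.45. Higher values were those of the IL-1 receptor Il1r1, at 0.78, the alarmin Il33, at 0.76, and Il19, at 0.63. The 27 genes of the NF-kB and TNF pathway had a median of -0.10, and 22 lay below 0, against 51.7% of all genes. One of them rose, against 0.729% of all genes. It was the co-stimulatory receptor Tnfrsf9, with a fold of 6.88 at 48 hr against 5.54 at 24 hr in the authors' deposited table.

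Enzymes induced by inflammation stood lower at 48 hr. Of 10 measured, 8 lay below 0, against 51.7% of all genes, with a median of -0.63, and 2 fell, against 1.12%. Acod1, which makes itaconate, fell by 1.56 and still had a footprint fold of 9.95 at 48 hr, against 11.51 at 24 hr in the authors' deposited table. Hdc, which makes histamine, fell by 1.04. Gch1, needed for the cofactor of nitric oxide synthase, differed by -0.67. The median mRNA difference of these 10 genes was -0.26 and that of WT footprints -0.21.

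Acute phase and complement genes went the other way. Of 19 measured acute phase and haem proteins, 16 lay above 0, against 48.3% of all genes, with a median of 0.33 for footprints and 0.56 for mRNA. Saa2 and Serpina3g rose, against 0.729% of all genes. The serum amyloid Saa2 had a footprint fold of 7.90 at 48 hr against 6.10 at 24 hr in the authors' deposited table, a difference of 1.80. Serpina3g, a protease inhibitor of a cluster of close copies, had 8.12 at 48 hr against 6.71 at 24 hr in the authors' deposited table, a difference of 1.41. Ceruloplasmin (Cp) differed by 0.94, haptoglobin (Hp) by 0.88 and Saa3 by 0.55. Of 15 complement genes 11 lay above 0 with a median of 0.24 and none passed the threshold. C3, the central component, had 6.49 at 48 hr against 5.62 at 24 hr in the authors' deposited table, a difference of 0.87. The proteases C1s1 and C1ra differed by 0.73 and 0.57, while factor B (Cfb), which interferon also induces, differed by -0.56.

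**Figure D3:**
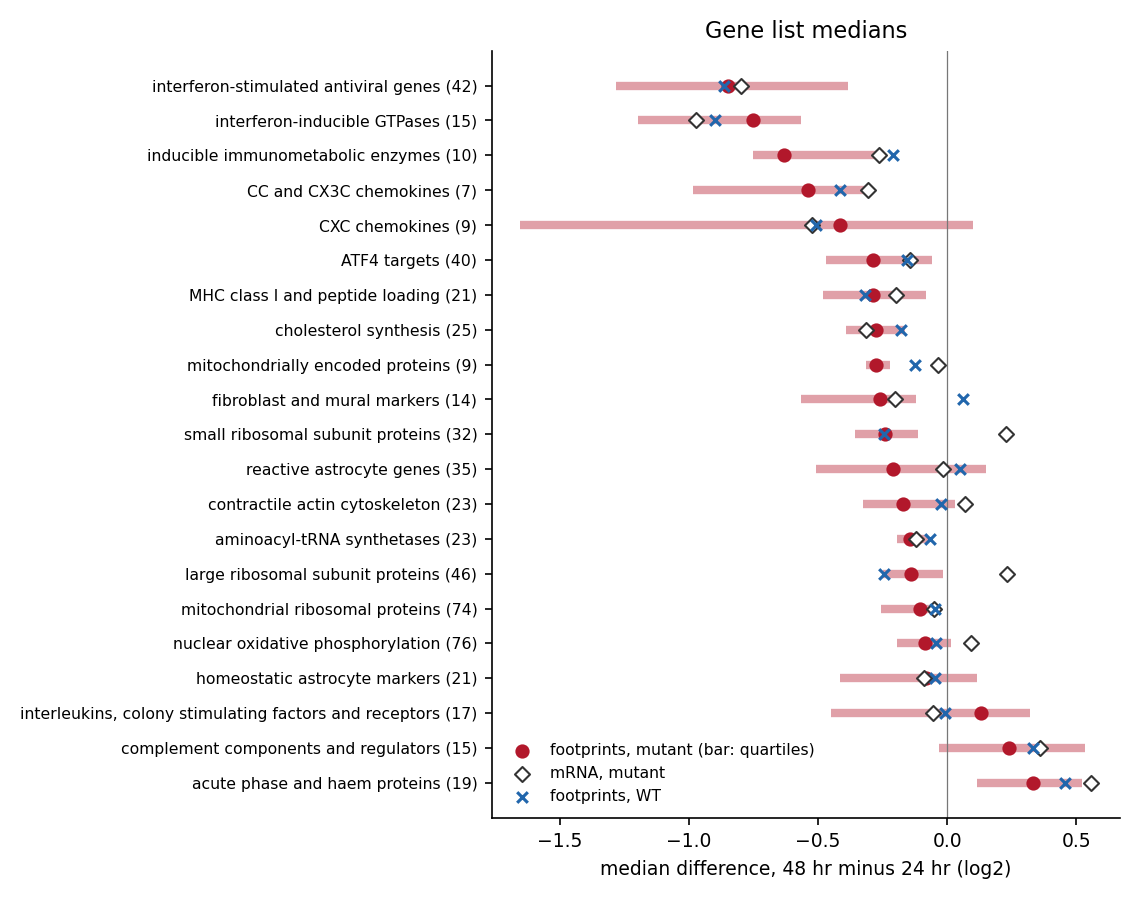
Median difference, 48 hr minus 24 hr on the log2 scale (x axis), of 21 gene lists with the number of measured genes in brackets. Filled circles are mutant footprints with a bar between the members' quartiles, diamonds mutant mRNA and crosses WT footprints. Antiviral genes are lowest (-0.85), acute phase genes highest (0.33), and the ribosomal protein lists have footprint and mRNA medians on opposite sides of 0.

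The genes that rose most were of mixed kinds, and no theme among them was tested. Ces1f, Ces1d and Ces1g, neighbouring carboxylesterases that hydrolyse esters and lipids, rose by 2.72, 2.27 and 1.85. Ces1f had a footprint fold of 4.74 at 48 hr against 2.02 at 24 hr in the authors' deposited table. In the related Ces2 family, Ces2g and Ces2e, differed by 0.44 and 0.07. The mRNA differences of Ces1f, Ces1d and Ces1g were 2.30, 2.35 and 1.40 and their WT footprint differences 3.03, 2.03 and 2.07. Lgi1, a secreted neuronal protein, rose by 2.59 in footprints, with -1.03 in WT footprints and 1.19 with the mutant footprint fold rebuilt as mRNA plus RD. Wfdc21 rose by 2.45 (1.76 rebuilt), lactotransferrin (Ltf), an iron-binding protein, by 2.36 (1.58 rebuilt) and Nlrc3 by 1.91. Smoc2, a secreted calcium-binding matrix protein, rose by 1.96 in footprints and 2.08 in mRNA. Carbonic anhydrase 2 (Car2) rose by 1.81 in footprints and 1.84 in mRNA. Mmp9, a matrix-cleaving protease, rose by 1.46, to a fold of 8.61 at 48 hr against 7.15 at 24 hr in the authors' deposited table. Footprints of Gpr37, an orphan receptor, differed by 2.85, from folds of -0.75 at 48 hr and -3.60 at 24 hr in the authors' deposited table, which is a return towards the untreated level. Cux2, a homeobox factor, had a footprint difference of 2.11 beside an mRNA difference of -0.36, and Ccna1, a cyclin, had 1.88 beside -0.91.

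The matrix genes as a list showed little common shift. Of 38 matrix glycoproteins and proteoglycans 23 lay below 0 and 15 above, with a median of -0.10, against 51.7% of all genes below 0. In this list 5 fell (1.12% of all genes) and 2 rose (0.729% of all genes), Thbs2 by 1.21 and decorin (Dcn) by 1.15. Matn3, a cartilage matrix protein, had a footprint fold of -6.84 at 48 hr against -3.43 at 24 hr in the authors' deposited table, a difference of -3.41. Lect1 and Cilp2 also fell but are not members of this list. Lect1, a chondrocyte inhibitor of vessel growth, stood at -5.60 at 48 hr against -2.35 at 24 hr in the authors' deposited table, a difference of -3.25. Cilp2 fell by 2.72 (-2.11 with the footprint fold rebuilt as mRNA plus RD). Within the list, Fbln5 fell by 2.03 and elastin (Eln) by 1.34. Fbln5 and Eln build elastic fibres. Of the collagens 9 of 20 lay below 0, with a median of 0.04 (-0.05 with length bins subtracted and -0.17 over the 10 with a footprint density). Of these 20 only 1 fell, Col8a2 by 1.85, against 1.12% of all genes. Col4a3 (-1.48), Col4a4 (-1.31) and Col2a1 (-1.20) fell too but are not members of the collagen list. These last genes were named after their values were seen. The Wnt inhibitor Dkk1, induced at 24 hr, fell by 3.13, to 0.87 at 48 hr against 4.00 at 24 hr in the authors' deposited table.

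Ribosomal protein genes showed opposite directions in footprints and mRNA. Of all 78, 62 had a footprint difference below 0, against 51.7% of all genes, with a median of -0.18. Among the genes with the shortest coding sequences (111 to 576 bases), 68.8% had a footprint difference below 0. An mRNA difference above 0 was found in 72 of the 78, against 50.5% of all genes, with a median of 0.23. In 58 of 78 the footprint difference was below 0 and the mRNA difference above 0. The footprint minus the mRNA difference was below 0 in 73, with a median of -0.41, against 53.5% of all genes. Only Fau, which encodes a small subunit protein fused to a ubiquitin-like domain, fell (-1.06), and its mRNA difference was 0.36. Rpl32 had a footprint fold of -0.24 at 48 hr against 0.52 at 24 hr in the authors' deposited table. The authors' deposited table gave its mRNA folds as 0.71 at 48 hr and 0.44 at 24 hr. The median WT footprint difference of the 78 genes was -0.24 and the median WT mRNA difference 0.09. Ribosomal protein mRNAs belong to the mRNAs with a 5′ terminal oligopyrimidine tract, whose translation follows mTOR. The 22 other measured mRNAs of that class had a footprint median of -0.14 and an mRNA median of 0.07, with 18 of 22 below 0 in the footprint minus mRNA difference. Ribosomal proteins have many processed pseudogenes, which can share their reads.

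**Figure D4:**
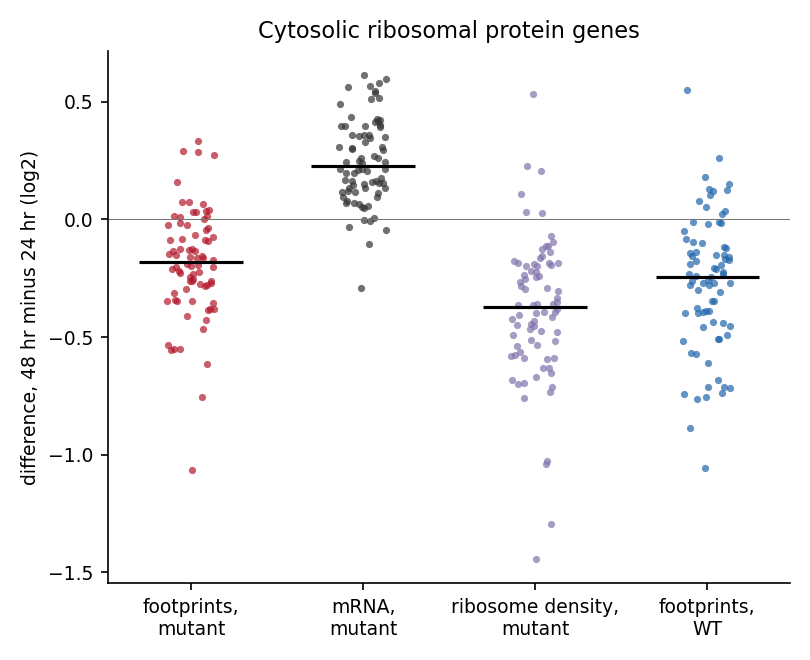
Difference, 48 hr minus 24 hr on the log2 scale (y axis), of 78 cytosolic ribosomal protein genes in mutant footprints, mutant mRNA, mutant ribosome density and WT footprints, 1 point per gene with a line at the median. The medians are -0.18 for mutant footprints, 0.23 for mutant mRNA, -0.37 for ribosome density and -0.24 for WT footprints.

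Footprint differences also followed coding length over the whole table. Among 11991 genes with an annotated coding sequence, split into 10 bins by length, the shortest bin had a median of -0.11 and 68.8% below 0, and the longest bin had a median of 0.14 and 20.0% below 0. The mutant mRNA medians of the same bins were -0.01 and 0.00. WT footprints had medians of -0.10 in the shortest bin, 0.05 in a middle bin and 0.00 in the longest, so they showed no steady slope. mRNA differences instead followed the GC content of the coding sequence, with medians of -0.15 in the lowest of 10 GC bins and 0.17 in the highest, where footprints had 0.02 and -0.04. Fragment size selection, digestion and library preparation per time point are not recorded by library, and their part in these slopes was not tested.

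Ribosomal protein genes are short, so they were set beside other genes of like coding length. Between 300 and 450 bases, 27 ribosomal protein genes had a footprint median of -0.25 and 455 other genes -0.11. Their mRNA medians were 0.21 and 0.00, and their ribosome density medians -0.46 and -0.08. With the median of each of 20 length bins subtracted, the footprint median of the 78 genes was -0.08, and with GC bins subtracted their mRNA median was 0.21. The footprint shift of ribosomal proteins was thus smaller after the length adjustment, while the mRNA shift was nearly as large after the GC adjustment.

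**Figure D5:**
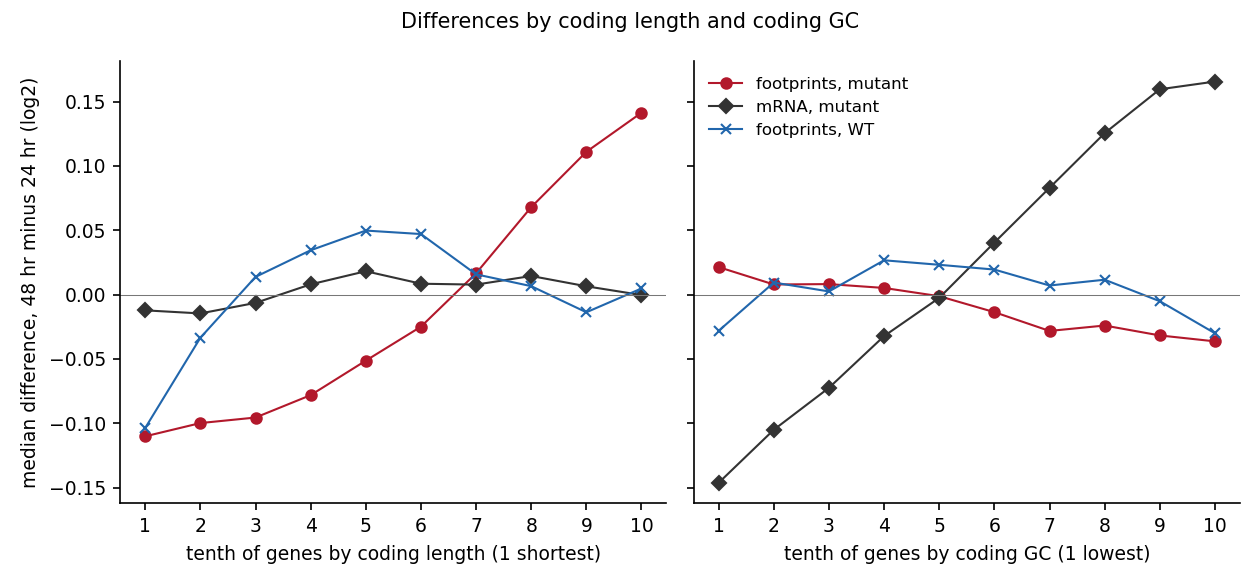
Median difference, 48 hr minus 24 hr on the log2 scale (y axis), in 10 bins of genes ordered by coding length (left) and by coding GC (right), for mutant footprints, mutant mRNA and WT footprints. Mutant footprints climb with length (-0.11 to 0.14) and mutant mRNA climbs with GC (-0.15 to 0.17).

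Targets of ATF4, the transcription factor that is translated when eIF2B activity is limiting, stood slightly lower at 48 hr. Of 40 measured, 34 lay below 0, against 51.7% of all genes, with a median of -0.29, and none passed the threshold. The pseudokinase Trib3 differed by -0.96, the amino acid transporters Slc7a3 by -0.82 and Slc7a5 by -0.66, and the stress protein Nupr1 by -0.77. The median was -0.14 for mRNA and -0.16 for WT footprints, and -0.19 for footprints with length bins subtracted. Atf4 stood at a footprint fold of 0.60 at 48 hr against 0.93 at 24 hr in the authors' deposited table, a difference of -0.33, and its mRNA differed by -0.30. Ddit3 and Atf3, stress factors downstream of it, differed by -0.31 and -0.37. Ppp1r15a, which directs eIF2α dephosphorylation, differed by -0.40. Of the 23 genes for aminoacyl-tRNA synthetases and their partners, 21 lay below 0 with a median of -0.14, and the lowest was Farsa at -0.31.

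The eIF2B subunits moved little. Eif2b5, the mutated gene, had a footprint fold of 0.06 at 48 hr against 0.16 at 24 hr in the authors' deposited table, a difference of -0.10. Eif2b1 and Eif2b3 both differed by -0.13, Eif2b2 by -0.17 and Eif2b4 by 0.02. All 5 lie between the quartiles of all genes except Eif2b2, just below the lower one. The point mutation leaves no sign in these folds that could check the genotype.

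Nuclear genes for mitochondrial proteins had medians below 0 that were close to 0 once length bins were subtracted. Of 74 mitochondrial ribosomal proteins 62 lay below 0 with a median of -0.11, and of 76 nuclear genes of oxidative phosphorylation 55 did, with a median of -0.09. With length bins subtracted these medians were -0.02 and 0.01, so the second changed sign. In the shortest of the 10 length bins 68.8% of all genes lay below 0. The mRNA of the oxidative phosphorylation genes had a median of 0.09, with 53 of 76 above 0. Of the 9 measured mitochondrially encoded proteins, 8 lay below 0, with a median of -0.27 for footprints and -0.04 for mRNA. Of 25 genes of cholesterol synthesis 24 lay below 0, against 51.7% of all genes, with a median of -0.27 for footprints, -0.32 for mRNA and -0.18 for WT footprints. The sterol enzymes Mvd and Tm7sf2 were lowest, at -0.66 and -0.63, and Msmo1 differed by -0.47.

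Proliferation genes stood below untreated cells at both times. The 37 mitosis genes had a median fold of -1.73 at 48 hr and -1.54 at 24 hr, and their median difference was -0.08 in mutant cells and 0.13 in WT cells. The 42 DNA replication genes had a median difference of -0.09 in mutant cells, with 28 below 0, and 0.13 in WT cells, with 10 below 0. Of all genes 51.7% lay below 0 in mutant cells and 49.4% in WT cells. The mutant mRNA median of these 42 genes was -0.01, with 22 below 0, against 49.5% of all genes. Over the 8 DNA replication genes with a footprint density the mutant median was 0.01. Aurkb, a mitotic kinase, differed by -0.59, and Rrm2, a subunit of ribonucleotide reductase, by -0.53. None of these genes passed the threshold, and the difference between genotypes was not tested.

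Homeostatic astrocyte markers went both ways. Of 21 measured 12 lay below 0, against 51.7% of all genes. Their median was -0.08 and their lower quartile -0.42, against a lower quartile of -0.16 for all genes. The pump subunit Atp1b2 differed by -0.64, S100b by -0.63 and the gap junction protein Gja1 by -0.43. The glutamate transporters Slc1a2 and Slc1a3 differed by 0.15 and 0.12, and Glul, which makes glutamine, by 0.02. Gfap stood at a footprint fold of -2.23 at 48 hr against -1.87 at 24 hr in the authors' deposited table. Vim, another intermediate filament gene, differed by -0.21. Of 35 reactive astrocyte genes 24 lay below 0, against 51.7% of all genes, with a median of -0.21. Their mRNA median was -0.02, with 18 below 0, and their WT footprint median was 0.05, with 17 below 0. The 4 that fell, against 1.12% of all genes, were Fbln5, Cxcl10, Gbp2 and Psmb8. Of these 4, 3 also stand in the interferon or chemokine groups above.

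The astrocyte label was checked against the authors' deposited table of footprint density, which lists 2332 transcripts from 0.10 upwards. Of the markers with a footprint fold it listed 10 of 21 astrocyte markers, with a median density of 0.633 and Clu highest at 5.44. Slc1a3 was listed at 1.51 and Gfap at 0.12, near the lowest value of the table, and Slc1a2, Gja1 and S100b were not listed. It listed 6 of 14 fibroblast and mural markers, with a higher median density of 1.37 and the smooth muscle actin Acta2 highest at 8.37. None of 12 microglia and macrophage markers or 6 endothelial markers was listed. The listed densities are those left after a filter of the authors, and unlisted markers here do have footprint folds. Absence from the list therefore does not show that a cell type is absent. Of the fibroblast and mural markers 13 of 14 measured lay below 0 with a median of -0.26 in mutant cells, against 6 of 14 in WT cells (all genes, 51.7% in mutant and 49.4% in WT cells). Vtn fell by 1.53, Acta2 differed by -0.90 and Tagln by -0.82, with similar WT footprint differences of -1.55, -0.96 and -0.86. Col1a2 differed by -0.64 in mutant and 0.09 in WT cells. The 1 marker above 0 in mutant cells was Dcn, which rose by 1.15, with 1.47 in WT cells. The macrophage list had folds for 12 of 32 markers, with 6 differences on each side of 0. Its median difference was 0.01, or -0.07 without genes whose companion columns disagree. These 12 markers stood above untreated cells at both times, with a median footprint fold of 4.465 at 48 hr and 3.11 at 24 hr by list median. The list holds both a gene that fell, Mmp12 (-3.05), and 2 that rose, Wfdc17 (5.57) and Adgre1 (2.76). The part of any other cell type in the changes above was not tested.

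Some of the largest differences did not match the companion columns. Ribosome density is the footprint level per mRNA, so the RD fold added to the mRNA fold rebuilds a footprint fold. Over all genes the difference rebuilt in this way had a Pearson correlation of 0.93 and a Spearman correlation of 0.98 with the deposited one. In 24 genes the 2 were more than 1 apart, among them 6 of the 12 lowest and 4 of the 12 highest. Nts, the neuropeptide neurotensin, had the lowest difference of all (-6.41), with a footprint fold of 0.21 at 48 hr against 6.62 at 24 hr in the authors' deposited table. Its mRNA fold was 10.02 at 48 hr against 9.80 at 24 hr in the authors' deposited table. The rebuilt difference of Nts was -0.02. Tgtp2 differed by -5.91 as deposited and by -1.78 as rebuilt, Cxcl9 by -4.67 and -3.49, and Mx1, an antiviral GTPase, by -3.99 and -1.94. Wfdc17 differed by 5.57 as deposited and by 2.29 as rebuilt, and Agtr1b, an angiotensin receptor, by 3.63 and 6.11. Adgre1 differed by 2.76 as deposited and by 6.34 as rebuilt. At 48 hr the deposited footprint fold was closer to 0 than the rebuilt one in 23 of the 24 genes, and at 24 hr in 19. The cause was not tested. The rebuilt differences give 112 genes (0.918%) that rose and 134 (1.1%) that fell, and 77 of the 89 rises and 108 of the 137 falls stand under both.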

How the data were processed

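Ribo-seq and RNA-seq of mutant astrocytes enter through 1 deposited table of log2 folds. Its file headers name RPF (ribosome-protected fragments, the footprints), mRNA and RD at 48 hr and 24 hr against 0 hr, for mutant and WT cells. The mutant RPF folds at 48 hr carry 2 decimals. A further table deposited by the authors gives a signal, the density of elongation reads per transcript, used to check markers and to restrict 1 alternative. TopHat2, featureCounts and build mm10 are named in the submitters' processing notes, with no version. The sources used here do not state how the folds were made, and depth per library is unknown.

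Differences (48 hr minus 24 hr) were computed with Python 3.11.15, pandas 2.3.3 and numpy 2.4.6, and drawn with matplotlib 3.10.9. No gene was tested. Coding length, coding GC and coordinates came from GENCODE M21 on GRCm38, the assembly of mm10, and promoters from RefSeq (GRCm38.p6). Through their identifiers 32 symbols were replaced. Dynlt1b lacks the difference. The procedures were tested on simulated data.

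The comparison, gene lists and rules were chosen with earlier results of these data known. Named genes were the 12 highest and 12 lowest differences, up to 5 members per list with the largest absolute difference, the 6 at each end of the footprint minus mRNA difference, the eIF2B subunits, a short set of markers and those nearest the threshold. A few others were named after their values were seen. Predicted models (10 of the genes that fell and 3 that rose) count but have no name in the text. Batch letters are shared by all groups, but the values are pooled over batches. Alternatives were another threshold, scaling, rounding, rebuilt footprint folds, restriction to genes with a density, and length or GC bins.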

Additional observations from a re-analysis of the deposited data

How the results depend on the processing

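No paired analysis was possible because the deposited folds are pooled over batches A, B and C, and for the same reason no replicate could be left out. At a threshold of 0.6, 290 footprints rose and 378 fell, with 306 and 295 for mRNA and 315 and 379 for WT footprints. At a threshold of 2 these were 10 and 22, 9 and 14, and 17 and 20. Among genes with a deposited footprint density alone, which are fewer, 4 rose and 8 fell, and the medians were -0.34 for antiviral genes, 0.23 for interferon signalling, -0.26 for the NF-kB and TNF pathway and 0.038 for the authors' DNA replication list. The mitochondrially encoded proteins had a median of -0.23 with footprint folds rebuilt as mRNA plus RD and -0.17 with length-bin medians subtracted. With length bins subtracted the authors' oxidative phosphorylation list had a median of -0.025 and its translation class -0.023. The cause of these shifts was not tested. Subtracting the median of all genes, rounding, rebuilding, length bins and GC bins kept the counts of footprint rises between 83 and 112 and of falls between 121 and 143, within 1.5 times those given. Of 282 named genes, 18 moved by over 1.5-fold with rebuilt folds. No named gene past the threshold changed sign under these settings. List medians changed sign in 6 of 57 lists with length bins, 5 of 44 with a density, 4 of 57 rebuilt, 1 of 57 with GC bins and 1 of 57 without the 24 genes. Of the named genes within the threshold, Zbbx (0.49 rebuilt), Esam (0.06 rebuilt) and Kdr (-0.05 with length bins) changed sign. The length-bin setting, the removal of the 24 genes whose companion columns disagree, and the mRNA and WT settings were added after seeing the data.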
